A study of Arabis alpina with 9 samples.

Results

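Auxin synthesis and response genes of Arabis alpina, a perennial relative of Arabidopsis thaliana, were followed in 9 libraries of the eop089 mutant. The 8 genes were TAA1, YUC6, YUC8, IAA1, IAA19, IAA29, GH3.1 and SAUR12. They were taken by their Arabidopsis codes from the 6 gene lists that the authors deposited for the mutant against its control, and each matched 1 entry of the count table, out of 34220 gene entries. The lists hold 1487 gene IDs, 1079 of them with an Arabidopsis code, and no other gene has a name here. Since only genes that differed between mutant and control were listed, the mutant-to-control values chose the genes and are given as a description.

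The series concerns the control of flowering by AaTFL1, the counterpart of the floral repressor gene TFL1. Polyadenylated RNA of the eop089 mutant in the accession Pajares, grown in long days, was sequenced in 3 groups of 3 libraries. These were dissected shoot apices at 3 weeks of age, dissected shoot apices at 5 weeks, and leaf positions 5 and 6 at 5 weeks. The labels name the mutation only by its line, do not say whether replicates were separate plants or pools, and give no time of day. Control libraries were not analysed here.

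Libraries held between 11859813 and 13382460 counts in genes. Libraries of the same group correlated across genes with r between 0.986 and 0.992 (log2 CPM; genes are not independent replicates), and their counts differed by more than counting noise, with a chi-square per degree of freedom from 1.66 to 10.7. The 3 named genes of 8 photosynthesis markers, CA1, CAT2 and LHCB2.1, summed to between 16777 and 17408 CPM (counts scaled to the size of the library) in the leaf and to between 137 and 424 CPM in the apices, and CAT2 had 0 counts in every 5-week apex library. None of the 10 shoot meristem markers had a name in the files, so the apex label could not be checked against them. The share of reads assigned to no gene separated the groups, at 7.94% to 8.30% in the leaf, 10.7% to 11.01% at the 3-week apex and 13.9% to 16.3% at the 5-week apex, and its part in the differences between groups was not tested. P-values measure the spread between these libraries, which may be technical.

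Auxin is made from tryptophan in a pair of steps. TAA1 encodes the aminotransferase of the first step, and the YUC genes encode the flavin monooxygenases of the second, which is usually limiting. Auxin binds TIR1/AFB receptors, which mark Aux/IAA repressors such as IAA1, IAA19 and IAA29 for breakdown and so release auxin response factors (ARFs). These in turn switch on early response genes of the Aux/IAA, GH3 and SAUR families, so that the repressor genes are themselves auxin-induced. In Arabidopsis YUC8, IAA19 and IAA29 are also direct targets of phytochrome-interacting factors, which act in shade and warmth.

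The deposited lists gave 6 of these genes as raised by the mutation, namely TAA1, YUC8, GH3.1 and the 3 IAA genes, and YUC6 and SAUR12 as lowered, with most listings in the leaf. For the 3-week apex the authors' deposited table listed IAA29 as 3.61 times and IAA1 as 2.08 times their control means (adjusted p-values 4.35e-07 and 0.00016), and YUC6 as 0.454 times (adjusted p 0.00446). For the leaf the authors' deposited table listed YUC8 at 3.6 times, GH3.1 at 3.41 times, IAA29 at 3.31 times, TAA1 at 2.32 times and IAA19 at 2.1 times their control means. SAUR12 was the leaf gene listed as lower, at 0.344 times its control mean by the authors' deposited table. IAA29 was the gene listed in both settings. None of the 8 genes was in either 5-week apex list. Whether the difference between mutant and control varied between the settings was not tested.

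The lists for the 3-week apex held 1.01% of detected genes as higher and 0.354% as lower. For the leaf these shares were 1.71% and 3.45%, and for the 5-week apex 0.277% and 0.21%. No listed gene had an adjusted p above 0.05 or a change much under 2-fold. Among the 8 auxin genes, those closest to the limits were GH3.1, with an adjusted p of 0.0377, and IAA1, at 2.08 times its control mean (values of the authors' deposited table). Genes just outside the limits are not in the lists, so they have no value to set beside these. The authors' mutant means were set against the mean counts of the 3 libraries of the same group, leaving out listed genes with low mean counts. They tracked these to within 5% of a constant for 100% of 307 genes at the 3-week apex and of 101 at the 5-week apex. The same held for nearly all of 1024 genes in the leaf, so listings and libraries share their samples.

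**Figure D1:**
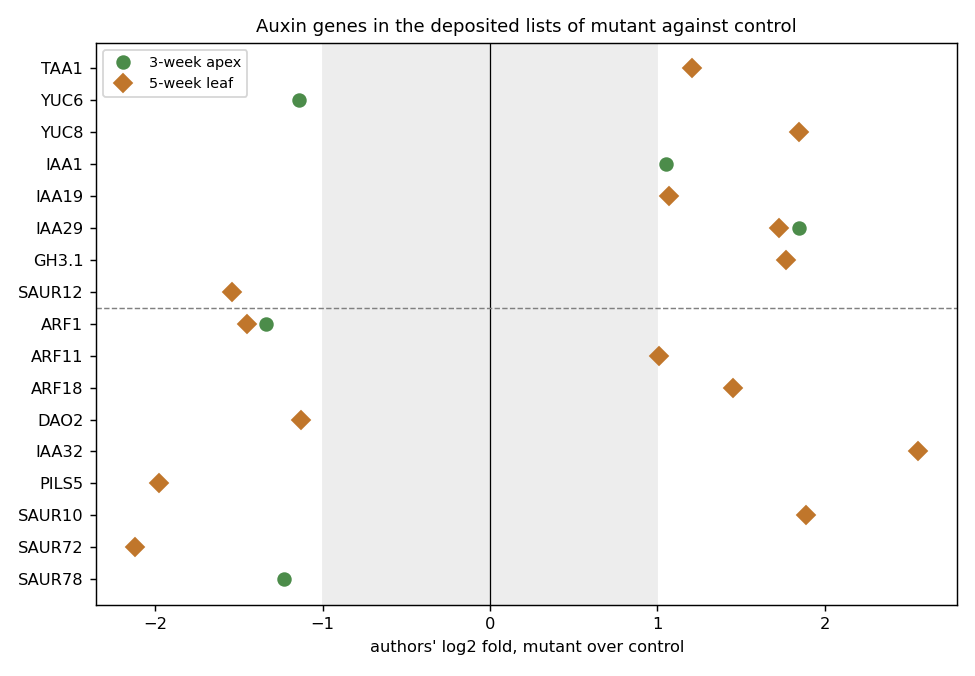
The authors' log2 fold of mutant over control (x axis) for the 8 auxin genes (above the dashed line) and 9 other listed auxin pathway genes (below it). Circles are the 3-week apex and diamonds the 5-week leaf; the grey band marks changes under 2-fold, which were not listed. IAA29 and ARF1 appear in both settings, IAA29 higher in both and ARF1 lower in both.

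Among the synthesis genes, TAA1 was higher in the apices and YUC8 was a leaf gene. TAA1 (Aa_G17660, counterpart of AT1G70560) had 17.2, 16.7 and 19.9 CPM in the 3-week apex libraries, 18.0, 14.4 and 15.1 CPM in the 5-week apex libraries and 9.50, 8.50 and 9.93 CPM in the leaf libraries. The apex ages overlapped, and every leaf library was below every apex library. Between the apex ages the log2 change of -0.18 (SE 0.11) did not pass (edgeR adjusted p = 0.215). From the 5-week apex to the leaf TAA1 fell by 0.77 on the log2 scale (SE 0.13; edgeR adjusted p = 3.98e-05), to 0.588 of its apex level. TAA1 was thus lower in leaf than in apex although it was listed higher in the mutant leaf than in the control leaf.

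YUC6 (Aa_G539250, counterpart of AT5G25620) was highest at the 5-week apex. Its levels were 1.30, 2.72 and 1.73 CPM at the 3-week apex, 6.19, 3.67 and 3.57 CPM at the 5-week apex and 1.66, 2.23 and 3.46 CPM in the leaf. The 5-week apex libraries lay above all others, while the 3-week apex and the leaf overlapped. YUC6 rose from 3 to 5 weeks by 1.22 on the log2 scale (SE 0.31; edgeR adjusted p = 0.00515), from a baseline at which it was listed lower in the mutant. It fell from the 5-week apex to the leaf with a log2 change of -0.87 (SE 0.32; edgeR adjusted p = 0.0217). That call was lost without 5-week apex replicate 1 (log2 change -0.57, edgeR adjusted p = 0.120), without leaf replicate 1 (-0.66, adjusted p = 0.103) and without leaf replicate 2 (-0.81, adjusted p = 0.0688), and over all alternatives the adjusted p ran from 9.996e-05 to 0.120. Leaf and 3-week apex did not differ past the threshold, with a log2 change of 0.35 (SE 0.36; edgeR adjusted p = 0.390).

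YUC8 (Aa_G182790, counterpart of AT4G28720) was counted almost only in leaf. It had 132, 157 and 250 counts in the 3 leaf libraries, 1, 0 and 1 counts at the 3-week apex and 0 counts in all 3 libraries of the 5-week apex. These leaf counts are 14.6, 16.7 and 27.9 CPM. Taking 3 counts over the 5-week apex libraries as the limit of detection (0.0657 CPM), YUC8 was at least 299-fold higher in the leaf. It passed the filter on low counts through its leaf libraries alone and so had to be called, and its p-value is not given as support. Against the 2 counts of the 3-week apex the ratio was 443, with an exact 95% counting interval from 122 to 3665, which covers counting error only. The apex ages could not be compared, since both were under the limit of 3 counts. In bulk tissue, fewer cells with a transcript and less transcript per cell cannot be told apart.

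All 3 Aux/IAA repressor genes were many times higher in leaf than in apex and fell in the apex between 3 and 5 weeks. IAA29 (Aa_G395030, counterpart of AT4G32280) moved the most of the 3. It had 5.48, 4.77 and 5.05 CPM at the 3-week apex, 0.322, 0.734 and 0.132 CPM at the 5-week apex, where it rested on 5, 11 and 2 counts, and 96.1, 99.8 and 91.4 CPM in the leaf. The 3 groups did not overlap. IAA29 fell by 3.66 on the log2 scale from 3 to 5 weeks (SE 0.27; edgeR adjusted p = 7.07e-08), and 0.286% of the 20633 tested genes had a lower value. The amount depended on single 5-week apex libraries. It was -4.42 without replicate 2 and -3.26 without replicate 3, past the threshold in both fits. From the 5-week apex to the leaf its log2 change was 7.89 (SE 0.18; edgeR adjusted p = 8.53e-16), the 135th highest of the tested genes. Without 5-week apex replicate 2 that log2 change was 8.65, and without replicate 3 it was 7.48. The ratio of its mean in the leaf to that at the 5-week apex was 242, and to that at the 3-week apex 18.8.

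IAA1 (Aa_G479690, counterpart of AT4G14560), one of the first auxin-induced genes described, had 10.9, 8.65 and 7.71 CPM at the 3-week apex, 3.09, 3.403 and 2.38 CPM at the 5-week apex and 46.4, 46.9 and 48.8 CPM in the leaf. Again no library of one group reached the range of another. IAA1 fell from 3 to 5 weeks with a log2 change of -1.62 (SE 0.16; edgeR adjusted p = 1.52e-06). It was 16.01 times higher in the leaf than at the 5-week apex, a log2 change of 3.997 (SE 0.14; edgeR adjusted p = 1.19e-13). Within the 3-week apex, replicate 1 was highest for IAA1 and for the photosynthesis marker CA1, at 32.4 CPM of CA1 against 4.90 and 13.6 in replicates 2 and 3. Without that replicate the fall of IAA1 was -1.46 on the log2 scale. The part of leaf-like tissue in this value was not tested.

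IAA19 (Aa_G424060, counterpart of AT3G15540), which in Arabidopsis acts in the bending and growth of stems and stamen filaments, had 13.7, 16.9 and 14.4 CPM at the 3-week apex, 11.02, 8.61 and 10.4 CPM at the 5-week apex and 157, 153 and 156 CPM in the leaf. The leaf libraries differed from each other by little and lay far above both apex ages. IAA19 fell by 0.58 on the log2 scale from 3 to 5 weeks (SE 0.10; edgeR adjusted p = 4.39e-04). From the 5-week apex to the leaf it rose 15.5-fold, a log2 change of 3.95 (SE 0.09; edgeR adjusted p = 1.15e-15). IAA29 and IAA1 were listed as raised at 3 weeks, the baseline of the age comparison, so their fall is not independent of that listing. IAA19 was not listed there.

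The response genes GH3.1 and SAUR12 had few counts and were highest in leaf. GH3.1 (Aa_G269120, counterpart of AT2G14960), named for a family of enzymes that join auxin to amino acids, had 19, 6 and 13 counts at the 3-week apex, 4, 2 and 11 counts at the 5-week apex and 17, 19 and 31 counts in the leaf. In CPM these were 1.24, 0.409 and 0.865, then 0.258, 0.133 and 0.727, then 1.88, 2.02 and 3.46. The apex ages overlapped, and each leaf library was above each apex library. GH3.1 was higher in the leaf than at the 5-week apex by 2.68 on the log2 scale (SE 0.51; edgeR adjusted p = 1.39e-04). Between the apex ages its log2 change of -1.16 (SE 0.57) did not pass (edgeR adjusted p = 0.116). Without 5-week apex replicate 3, which held most of the counts at that age, it was -2.04 and passed (edgeR adjusted p = 0.0295, the lowest of alternatives that reached 0.395), and the leaf difference was 3.57.

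SAUR12 (Aa_G10000, counterpart of AT2G21220), of the large SAUR family of small auxin-responsive proteins, had 22, 15 and 15 counts in the leaf. It had 0, 0 and 2 counts at the 3-week apex and 0 counts in every library of the 5-week apex. The leaf levels were 2.43, 1.59 and 1.67 CPM. SAUR12 was at least 28.8-fold higher in the leaf than at the 5-week apex, against 3 counts over that group. Like YUC8 it passed the filter through its leaf libraries alone, and its p-value is not given as support. Against the 3-week apex, whose 2 counts both lay in replicate 3, the ratio was 42.7, with an exact 95% counting interval from 11.2 to 362. SAUR genes are many and alike, and reads that other copies share may have been counted unevenly.

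**Figure D2:**
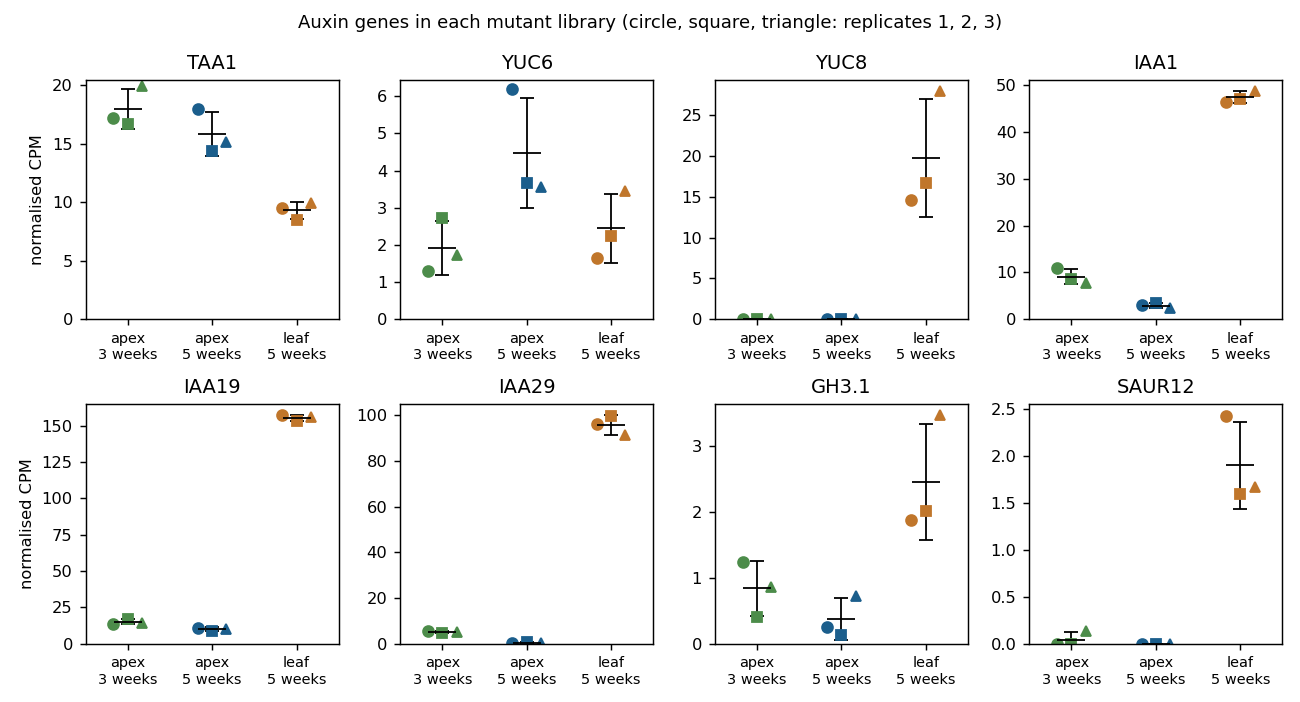
Normalised CPM (y axis, linear, from 0) of each auxin gene in the 9 mutant libraries, by group; symbols are single libraries, dashes the group means and error bars the SD (n = 3). TAA1 is lowest in the leaf and YUC6 highest at the 5-week apex, whereas the other 6 genes are highest in the leaf, with no overlap between leaf and apex libraries.

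YUC8 and SAUR12 entered the test only through their leaf libraries and so had to differ. From the 5-week apex to the leaf, 4 of the other 6 genes rose and 2 fell, so that all 6 passed, where 79.1% of all tested genes passed. No leaf library overlapped a 5-week apex library for any of these genes, as for 79.7% of all tested genes. Higher calls made up 37.1% of tested genes and lower calls 42.0%, so that 46.9% of calls were higher, or 22.0% with scaling by total counts. The median log2 change of the 6 genes was 3.32, against -0.10 over all genes. TAA1, IAA19, IAA29, GH3.1 and YUC8 were listed as raised, and SAUR12 as lowered, from these same leaf libraries, so the leaf comparisons are not independent of how the genes were chosen. Passing the test was common for any gene in this comparison, and the count by itself says little about auxin genes.

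The leaf and the 3-week apex differ in both organ and age, which cannot be told apart here. Leaving aside YUC8 and SAUR12, which had to differ, 4 genes rose, TAA1 fell and YUC6 did not pass, against 74.9% of tested genes called, 36.6% higher and 38.3% lower. The libraries were apart for 5 of these 6 genes and for 78.6% of all tested genes. TAA1 changed by -0.95 on the log2 scale (SE 0.13; edgeR adjusted p = 3.97e-06). IAA29, IAA19, IAA1 and GH3.1 changed by 4.23 (SE 0.12), 3.37 (SE 0.09), 2.38 (SE 0.12) and 1.53 (SE 0.44). The GH3.1 call (edgeR adjusted p = 0.00513) did not hold with scaling by total counts. Of all calls 48.9% were higher, and 22.8% with scaling by total counts. This comparison and the previous one share the leaf libraries, so they are not separate evidence of a high leaf level.

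From 3 to 5 weeks 4 of the 6 genes above 3 counts passed in the apex, with IAA1, IAA19 and IAA29 lower and YUC6 higher. YUC8 and SAUR12 had too few counts at both ages to be called. Over all genes 40.1% passed, 21.0% lower and 19.1% higher. IAA1, IAA29 and YUC6 were listed at the 3-week apex, so the count is not independent of how the genes were chosen. By itself it says little about auxin genes. The same 4 genes had apex ages that did not overlap, as had 52.0% of all tested genes. Of all calls 47.6% were higher, or 66.2% with scaling by total counts and 37.2% by DESeq2. The median log2 change of the 6 genes above 3 counts was -0.87, against 0.01 over all genes. Some leaf, vascular and epidermal markers fell over the same interval. CA1 had 32.4, 4.90 and 13.6 CPM at 3 weeks and 0.322, 0.334 and 0.991 CPM at 5 weeks, a log2 change of -4.93 (SE 0.67; edgeR adjusted p = 3.28e-05). CAT2 went from 42, 2 and 3 counts to 0 in every library, and SUC2 fell by 1.27 on the log2 scale (SE 0.16; edgeR adjusted p = 1.35e-05), whereas LHCB2.1 did not pass, at 0.35 (SE 0.26; edgeR adjusted p = 0.307). The summed photosynthesis level in the apex was carried by LHCB2.1. Of the epidermal markers, TOO MANY MOUTHS fell by 0.89 on the log2 scale (SE 0.21; edgeR adjusted p = 0.00305). PDF1, at -0.87 (SE 0.39; edgeR adjusted p = 0.0846), and KAT1, at 0.47 (SE 0.24; edgeR adjusted p = 0.132), did not pass. The part of leaf, vascular and epidermal tissue in the fall of the auxin genes was not tested. The 3 repressor genes fell by unequal amounts, to 0.0777 of the 3-week mean for IAA29, 0.326 for IAA1 and 0.669 for IAA19.

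**Figure D3:**
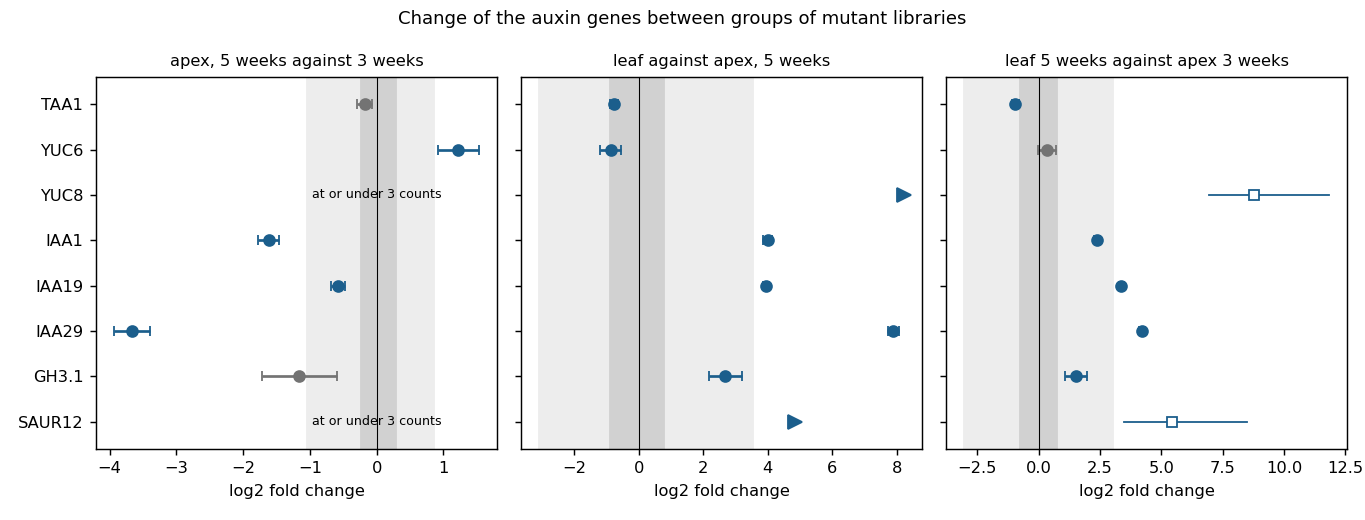
Log2 fold change (x axis) of each auxin gene in 3 comparisons of mutant libraries. Circles with SE bars are edgeR fits (blue passed, grey did not), right-pointing triangles are lower bounds, open squares are count ratios with 95% intervals, and the dark and light bands hold the central 50% and 90% of all tested genes. Between the apex ages IAA29, IAA1 and the uncalled GH3.1 lie left of the light band, at -3.66, -1.62 and -1.16, and YUC6 lies right of it at 1.22, and in both leaf comparisons YUC8, IAA29, IAA19 and SAUR12 lie right of it.

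Leaf replicate 3 was the highest leaf library for YUC8, at 1.79 times the mean of the other 2, for GH3.1, at 1.78 times, and for YUC6. SAUR12 was instead highest in leaf replicate 1, at 1.49 times the mean of the other 2. Leaf replicate 3 was the lowest for IAA29, which varied little, at 0.933 times the mean of the other 2. In the same library the epidermal marker PDF1 had 39.2 CPM against 4.64 and 2.87 in replicates 1 and 2, and the stomatal lineage marker TOO MANY MOUTHS (TMM) had 6.25 against 2.76 and 1.91. The third named epidermal marker, the guard cell channel gene KAT1, was lowest there, at 2.57 CPM against 3.76 and 3.29. Of the vascular markers, the xylem laccase genes LAC4 and LAC17 were highest in that library, at 69.7 and 69.3 CPM, and the phloem sucrose carrier gene SUC2 was lowest, at 302 CPM against 317 and 335. The 3 named of 6 epidermal markers summed to between 8.07 and 48.0 CPM in the leaf, between 658 and 850 CPM at the 5-week apex and between 1194 and 1429 CPM at the 3-week apex. The 3 named of 6 vascular markers, LAC4, LAC17 and SUC2, summed to between 394 and 441 CPM in the leaf, between 21.1 and 42.9 CPM at the 5-week apex and between 54.6 and 62.6 CPM at the 3-week apex. Without leaf replicate 3 the leaf means were 15.6 CPM for YUC8 and 1.95 CPM for GH3.1, and GH3.1 was still called higher in the leaf. The part of these tissues in the auxin values was not tested.

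Of 120 auxin pathway genes in fixed lists, 9 others were in the deposited lists and could be named. They were the response factor genes ARF1, ARF11 and ARF18, the repressor gene IAA32, the response genes SAUR10, SAUR72 and SAUR78, the auxin carrier-like gene PILS5 and the auxin oxidase gene DAO2. None of the 6 receptor genes was listed. The authors' deposited table listed ARF1 as lower in both settings, at 0.395 times its control mean in the 3-week apex and 0.366 times in the leaf. SAUR78 was listed as lower for the 3-week apex, at 0.428 times by the authors' deposited table. Among leaf genes the authors' deposited table listed IAA32 at 5.89 times, SAUR10 at 3.72 times, ARF18 at 2.72 times and ARF11 at 2.01 times their control means. It listed SAUR72 at 0.23 times, PILS5 at 0.253 times and DAO2 at 0.458 times, also values of the authors' deposited table. Including the 8 genes above, the pathway was listed 9 times as higher and 5 times as lower in the leaf, and 2 and 3 times at the 3-week apex. Over all detected genes, 1.71% were listed as higher and 3.45% as lower in the leaf, and 1.01% and 0.354% at the 3-week apex. The 8 genes were chosen from these same lists, so the split does not describe the pathway. A gene missing from the lists has no name here, so nothing is known of the rest.

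With TMM scaling these 9 genes split evenly between mutant leaf and 5-week apex, 3 higher, 3 lower and 3 not past the threshold. Over all tested genes 37.1% were higher and 42.0% lower. The median log2 change of the 9 genes was -0.06. Their values with scaling by total counts are not given. SAUR10 rose by 3.02 on the log2 scale (SE 0.41) and SAUR78 by 2.78 (SE 0.15), and ARF11 by 0.57 (SE 0.13), all past the edgeR threshold. The rise of ARF11 depended on the scaling. Its raw counts were 161, 208 and 219 in the leaf and 219, 233 and 206 at the 5-week apex. PILS5 fell by 2.40 (SE 0.17), ARF18 fell by 2.04 (SE 0.09) and ARF1 fell by 1.36 (SE 0.10). IAA32 had similar values in all groups, with means of 4.81 ± 0.663, 5.11 ± 0.949 and 5.08 ± 0.616 CPM (SD, n = 3 each) in the order 3-week apex, 5-week apex and leaf. Like TAA1, ARF18 was lower in leaf than in apex in the mutant and yet listed higher in the mutant leaf than in the control leaf.

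Between the apex ages 4 of the 9 rose, namely ARF1, DAO2, PILS5 and SAUR78, and SAUR10 fell, where 19.1% of all tested genes rose and 21.0% fell. SAUR78 went from 1.89 ± 0.330 to 4.62 ± 0.882 CPM (SD, n = 3 each), a log2 change of 1.29 (SE 0.21; edgeR adjusted p = 1.43e-04). SAUR10 rested on 44 counts at 3 weeks and 16 at 5 weeks and changed by -1.45 (SE 0.46; edgeR adjusted p = 0.0203). DAO2 rose by 0.85 (SE 0.11) and PILS5 by 0.77 (SE 0.13). ARF1 and SAUR78 were listed as lowered at 3 weeks, so their rise is not independent of that listing. From the 3-week apex to the leaf 4 rose and 3 fell with TMM scaling, so that 7 of 9 were called, near the 74.9% of all tested genes.

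**Figure D4:**
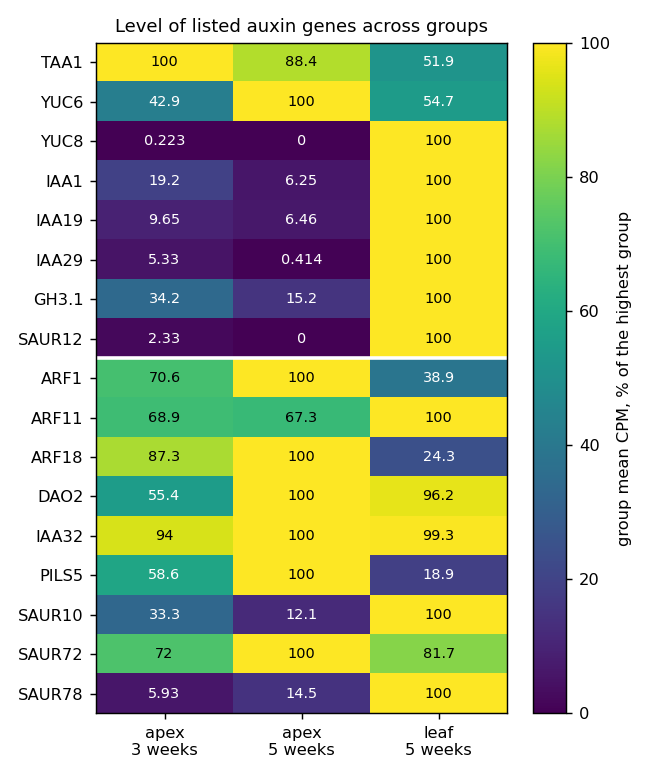
Group mean CPM of each gene as a percentage of its own highest group (colour and number) for the 8 auxin genes (above the white line) and 9 other listed pathway genes. The apex means of the Aux/IAA genes IAA1, IAA19 and IAA29 are between 0.414% and 19.2% of their leaf mean. With the TMM scaling used here IAA32 stays between 94.0% and 100% in all groups, which depends on that scaling.

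Levels were set between groups only within a gene, because no gene lengths were given. For TAA1 the order was 3-week apex, 5-week apex and leaf, of which the apex ages did not differ beyond their spread. For IAA1, IAA19 and IAA29 it was leaf, 3-week apex and 5-week apex, with each neighbouring pair apart. GH3.1 had the same order of means, with the apex ages overlapping. For YUC6 the order was 5-week apex, leaf and 3-week apex, the last 2 overlapping. YUC8 and SAUR12 were above the limit of detection in leaf libraries alone.

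Among 931 other named genes with a mean of at least 1 CPM, the gene most alike in pattern was sought for each auxin gene, by Pearson's r of log2 CPM over the 9 libraries. The closest genes were GER3 for YUC8 (r = 0.998), DAR3 for IAA19 (r = 0.998), PP2-A5 for SAUR12 (r = 0.997), AT3G49790 for IAA1 (r = 0.995) and AT2G04690 for IAA29 (r = 0.991). They were FKF1 for TAA1 (r = 0.989), AT3G07570 for GH3.1 (r = 0.949) and PAR1 for YUC6 (r = 0.889). At both apex ages YUC8, SAUR12 and DAR3 lay at or near the limit of detection, where log2 CPM is set mostly by the prior. A high r of YUC8 and SAUR12 with genes higher in leaf was thus fixed in advance. GER3 had means of 314 and 278 CPM at the 3-week and 5-week apex, where YUC8 was all but absent. High values were common, with 298 genes above r = 0.9 for YUC8 and 311 for IAA19. The 9 libraries share the contrast of leaf and apex, and r within a group was not computed. YUC6 had no gene above that value.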

How the data were processed

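The authors deposited 1 table of raw counts by gene and library, with 5 special entries that were left out of library sizes. Reads without a gene made up 7.94% to 16.3% of the table's total per library, lowest in the leaf and highest at the 5-week apex, and ambiguous reads 2.78% to 3.37%. STAR, HTSeq 0.5.4p1, DESeq and DESeq2 appear in the submitters' processing notes, without role or order. Sources used here do not give the genome build. By the labels' protocols, libraries were directional and read as single reads of 100 bases.

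The authors also deposited 6 lists. Per the file headers these give a mean expression signal of normalized counts, a fold change (the ratio of mutant to control mean), its log2 value and an adjusted p-value, all by the authors. The 6 columns of control means belong to no sample here and were not used.

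Counts were tested with edgeR 4.0.16 (R 4.3.3; TMM scaling, filterByExpr, quasi-likelihood F-test, 1 model with 3 groups), with Benjamini-Hochberg adjustment over the 20633 genes kept and a threshold of 0.05. All 8 auxin genes passed the filter, YUC8 and SAUR12 through leaf libraries alone. Each SE was obtained as the size of the log2 change divided by the root of F. CPM used TMM-scaled library sizes. Logarithms for correlations used a prior of 3 counts. The scripts were tested on simulated data with known changes.

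Alternatives were RLE size factors, total counts, no filter, DESeq2 1.42.0, limma 3.58.1 with voom, a replicate block, fits of only the groups compared, and each library left out. Genes named were the 8 auxin genes, other listed genes of fixed auxin lists (up to 6 per comparison by size of change) and the closest gene in pattern. Members and lists were chosen with earlier results of these data known. Tables and figures were made in Python 3.11.15 (numpy 2.4.6, scipy 1.17.1, matplotlib 3.10.9, pandas 2.3.3).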

Additional observations from a re-analysis of the deposited data

How the results depend on the processing

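Over 22 values of the 8 auxin genes and 16 alternatives each, 346 of 352 kept their direction and their side of the threshold. The tally includes YUC8 and SAUR12 in leaf against each apex age, which had to be called. It also includes fits without a library outside the groups compared, which could hardly change a value. It therefore overstates how firmly the values hold. YUC6 between leaf and 3-week apex, not called either way, changed from 0.35 to -0.37 (log2) with total counts. Total counts also moved the median of all genes from -0.10 to -0.93 between leaf and 5-week apex, from -0.03 to -0.76 between leaf and 3-week apex and from 0.01 to 0.12 between the apex ages. GH3.1 between leaf and 3-week apex moved to 0.81 with total counts (adjusted p = 0.101, the highest of alternatives that start at 0.00238), a change relative to that shifted median. The split of calls also depended on scaling, with 47.6% of apex age calls higher by TMM and 66.2% by total counts, 40.1% by RLE and 37.2% by DESeq2, and with 46.9% and 48.9% higher by TMM in leaf against 5-week and 3-week apex, but 22.0% and 22.8% by total counts. The counts of genes called, 8265 between the apex ages, 16316 and 15451 in leaf against 5-week and 3-week apex, stayed within 1.5 times under all alternatives, and leaving out single libraries gave 6256 to 8697, 15689 to 16362 and 14781 to 15827. With the authors' fold held at 3 or more, 1 auxin gene stayed listed as higher and 0 as lower at the 3-week apex, and 3 as higher and 0 as lower in the leaf. Same-numbered libraries did not deviate together (r from -0.148 to 0.0112, against -0.0916 to 0.115 for different numbers). With 3 libraries per group this check cannot exclude that same-numbered samples were paired. A replicate block gave 7681, 16114 and 15242 calls and changed no call of the auxin genes. At these depths YUC8, SAUR12, GH3.1 and, at the 5-week apex, IAA29 rest on few counts.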

Other observations

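Outside the fixed auxin lists, 14 further listed genes carry the word auxin in their deposited annotation. This search was made after the values were seen, and their annotations tie them to auxin in different ways. They were listed 5 times as higher at the 3-week apex, 1 time as higher at the 5-week apex, and 5 times as higher and 6 times as lower in the leaf. The shares of all detected genes in these lists were 1.01%, 0.277%, 1.71% and 3.45%. DRM2 was listed as higher in all 3 settings. By the authors' deposited table it stood at 10.72 times its control mean for the 3-week apex, 8.53 times for the 5-week apex and 10.79 times for the leaf. ARGOS, an auxin-induced gene of organ size, was listed by the authors' deposited table at 2.55 times its control mean for the 3-week apex and 3.49 times for the leaf. ACS8, an auxin-inducible gene of ethylene synthesis, was listed for the leaf at 2.69 times by the authors' deposited table. PAR1 and PAR2, light-regulated genes of elongation growth, were listed there at 5.86 and 2.35 times by the authors' deposited table. The auxin transporter gene ABCB21 was listed as lower in the leaf at 0.455 times its control mean, MYB77, which acts with response factors, at 0.305 times and NAC1 at 0.311 times, by the authors' deposited table.

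Between the mutant groups ACS8 had the same order of levels as IAA1, IAA19 and IAA29, though not IAA32. Its means were 0.910 ± 0.0977 CPM at the 3-week apex, 0.133 ± 0.132 at the 5-week apex and 68.5 ± 4.32 in the leaf (SD, n = 3 each). It fell by 2.71 on the log2 scale between the apex ages (SE 0.49; edgeR adjusted p = 4.34e-04). ARGOS had 19.0 ± 0.453, 11.02 ± 2.01 and 29.6 ± 6.30 CPM (SD, n = 3 each) in the same order of groups. PAR2 rose at each step, from 12.5 ± 0.519 to 27.4 ± 1.21 and 49.8 ± 2.62 CPM (SD, n = 3 each). DRM2 was instead highest at the 3-week apex, with 196 ± 20.0, 29.2 ± 13.8 and 22.1 ± 10.7 CPM (SD, n = 3 each). Its leaf and 5-week apex did not differ past the threshold (log2 change -0.41, SE 0.29; edgeR adjusted p = 0.208). HEC1, CYP83B1 and AT1G56220 were also highest at the 3-week apex, while MYB77 was lowest there. ABCB21 and AT5G35735 had the same order of means as ACS8. HB53, an auxin-induced homeobox gene, was highest at the 3-week apex, at 1.49 ± 0.0513 CPM (SD, n = 3). Its means were 0.242 ± 0.205 CPM at the 5-week apex and 0.109 ± 0.110 CPM in the leaf (SD, n = 3 each). HB53 passed the filter on low counts through its 3-week apex libraries alone and so had to differ. Its p-value is not given as support. ARGOS, HB53, DRM2, HEC1 and AT1G56220 were listed higher at the 3-week apex, so their fall is not independent of that listing.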
